A study of Mus musculus with 9 samples.

Results

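Iron handling in cultured mouse macrophages was described through 10 genes of iron uptake, storage and export, out of the 55655 rows measured in each library. They were picked by gene symbol, and all 10 had a row: the exporter Slc40a1 and its partner oxidase Cp, the uptake genes Tfrc, Steap3, Slc11a2 and Slc11a1, the ferritin subunits Fth1 and Ftl1, the ferritin cargo receptor Ncoa4 and the regulator Ireb2. The study asked how photobiomodulation (PBM), irradiation with near-infrared light, alters macrophages in the neurotoxic M1 state. Bone marrow came from wild type C57BL/6 mice aged 6 to 8 weeks and was cultured for 7 days in every group with M-CSF at 10 ng/mL, which drives marrow cells to become macrophages (BMDMs). There were 3 RNA-seq libraries in each of 3 groups: M0 macrophages without irradiation, whose time of harvest is not given in the labels, M1 macrophages given LPS and IFN-γ for 12 h, and M1 macrophages given the same stimuli and PBM (M1 + PBM). The study describes the RNA-seq experiment as independently repeated, and the labels do not tie a library to a mouse or culture. The p-values measure the spread between these libraries.

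Macrophages take up iron from transferrin through the transferrin receptor and from engulfed red cells, hold it in ferritin shells, and release it through ferroportin, the iron exporter encoded by Slc40a1. Part of this balance is set after transcription. Iron regulatory proteins, one of which is encoded by Ireb2, bind a short hairpin called the iron-responsive element (IRE), which lowers translation when it lies in a 5′ UTR and protects the mRNA when it lies in a 3′ UTR. In activated macrophages, iron retention is a known defence that keeps the metal from microbes.

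The IREs were looked for in the annotated coding transcripts of GENCODE release M21, because these letters are the known basis of control by iron regulatory proteins, part of which acts on translation and is not seen in mRNA levels. The motif searched on the transcript strand was a C, 5 bases, the loop CAGTG with 1 further base, and 5 bases, 17 in all, with 5 of 5 opposed bases paired (A with T, G with C, or G with T). Slc40a1, Fth1 and Ftl1 held it once each in the 5′ UTR, and Tfrc held it 4 times in the 3′ UTR, so 4 of the 10 genes had a match. Across 21901 coding genes 1.34% held the motif anywhere in a transcript. A match is a description of these letters, not a measured binding site. The sequences below are printed 5′ to 3′ with the loop in capitals, and their positions are on GRCm38.
Slc40a1, 5′ UTR, chr1:45925471-45925487, minus strand: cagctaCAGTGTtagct
Fth1, 5′ UTR, chr19:9982738-9982754, plus strand: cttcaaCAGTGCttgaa
Ftl1, 5′ UTR, chr7:45459785-45459801, minus strand: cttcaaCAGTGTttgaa
Tfrc, 3′ UTR, chr16:32631225-32631241, plus strand: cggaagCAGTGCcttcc
Tfrc, 3′ UTR, chr16:32631604-32631620, plus strand: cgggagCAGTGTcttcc
Tfrc, 3′ UTR, chr16:32631669-32631685, plus strand: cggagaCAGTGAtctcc
Tfrc, 3′ UTR, chr16:32631716-32631732, plus strand: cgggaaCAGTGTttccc
Slc11a2, 3′ UTR, chr15:100395159-100395175, minus strand: cagagcCAGTGTgtttc
The last sequence, from the iron transporter Slc11a2, paired at 4 of 5 positions. Slc11a1 also held a match with 4 pairs, in the coding part of 2 of its 2 coding transcripts. A match with 4 or 5 pairs anywhere in a transcript was held by 10.7% of coding genes. In Slc40a1 and Ftl1 the element lay in 1 annotated coding transcript, of 4 and 3, and in Fth1 it lay in 4 of 5. Each Tfrc element lay in 1 of 3 coding transcripts, and the Slc11a2 element in 1 of 7. FPKM per gene do not separate these transcripts.

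Values are FPKM, fragment numbers divided by transcript length and by the number of fragments mapped in the library, as the authors deposited them in 2 tables, 1 for M0 and 1 for the other groups. The fragment depth is unknown: only 25.9% to 27.3% of low values fell on whole-fragment steps within 0.05 of a fragment, against 10% for evenly spread values, so reads were not recovered. The 3 most abundant rows took 30.9% to 37.8% of the summed FPKM of a library. All 8 macrophage markers were detected, with summed FPKM of 6798 to 10341 in M0, 5499 to 8469 in M1 and 5637 to 7287 in M1 + PBM. The 7 M1 markers summed to 1932 to 2015 in M1 and 896.4 to 1441 in M1 + PBM. M0 replicate 3 stood apart, with an M1 marker sum of 282 against 16.3 and 18.4 in the other M0 libraries and a sum of 7 stromal markers of 191.1 against 5.62 and 6.94. M1 replicate 2 had a sum of 12 hepatocyte markers of 21.1, against 0.756 to 3.61 in the other 8 libraries. Erythroid markers, which matter here because red cell precursors are rich in Tfrc, summed to 0.504 to 1.32 in all libraries, and Slc4a1 was listed at 0 throughout. Neutrophil markers summed to 1.53 to 2.39 in M0, 8.94 to 28.1 in M1 and 6.44 to 15.2 in M1 + PBM. Most of this was S100a8, at 1.13 to 2.11, 6.90 to 27.2 and 4.94 to 14.5 in these groups. Camp was at 0.176 to 0.381, 0.767 to 2.80 and 0.387 to 2.44. The other markers did not rise in this way: Ngp, Retnlg, Mpo and Elane were at 0.139 or less throughout, and S100a9 and Ly6g were listed at 0. The part of these cells and libraries in the results below was not tested beyond leaving libraries out.

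The M0 and M1 libraries were set side by side for the level of each iron gene. Polarization cannot be told apart here from the separate table or from the unlabelled time of harvest of M0. Words such as after polarization or after stimulation name the group only. Because M0 stands in a table of its own, no test was run across the tables, and a gene was called different when the 3 libraries of each group did not overlap and the mean FPKM differed at least 2-fold. In a bulk culture, fewer cells that express a gene and less of its RNA per cell cannot be told apart. As deposited, most rows were lower in M1 than in M0, with a median log2 ratio of -0.45 over 13915 rows for M1 and -0.36 for M1 + PBM. Median-of-ratios scaling moved these medians by 0.52 and 0.43 on the log2 scale. The log2 ratios of the members are therefore also given relative to the median of all rows, by subtracting it.

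By this rule 6 of the 10 genes were called in M1 against M0, 2 higher and 4 lower, where 32.4% of all rows were called, 9.42% higher and 23.0% lower. In M1 + PBM against M0, 4 were called, 1 higher and 3 lower, where 27.1% of all rows were called, 8.88% higher and 18.2% lower. Without the 2-fold rule, 8 of the 10 genes did not overlap between M1 and M0, 3 higher and 5 lower, where 66.3% of all rows did not, 15.6% higher and 50.6% lower. In M1 + PBM against M0 the same number did not overlap, 4 higher and 4 lower, where 62.2% of all rows did not, 15.9% higher and 46.2% lower. The median log2 ratio of the 10 genes was -0.58 in M1 and -0.45 in M1 + PBM. After scaling, 15.2% of rows were called higher and 11% lower in M1, and 7 members were called in each comparison, with Fth1 and Slc11a1 added and Ftl1 lost in M1. In M1 + PBM, scaling added Fth1, Slc11a1 and Slc11a2, with 13.1% of rows called higher and 9.36% lower. Both comparisons use the same M0 libraries, so they are not independent.

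Slc40a1 (ENSMUSG00000025993), ferroportin, was the export gene with the higher level in M0 and a low level after polarization. Its FPKM was 19.5, 29.2 and 9.62 in M0 replicates 1 to 3, then 2.21, 1.73 and 1.78 in M1, and 2.64, 1.17 and 4.44 in M1 + PBM. Every M0 library lay above every M1 and M1 + PBM library, and M0 replicate 3 was the lowest of the M0 libraries. The mean of 19.4 ± 9.80 in M0 (SD, n = 3) was 10.2-fold that of M1 (1.90 ± 0.262) and 7.06-fold that of M1 + PBM (2.75 ± 1.64). The log2 ratio of M1 to M0 was -3.35, or -2.90 relative to all rows, and lay between -3.67 and -2.93 when 1 M0 library was left out. The M1 + PBM libraries spread over a wider range than the M1 libraries and enclosed them.

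Cp (ENSMUSG00000003617) encodes ceruloplasmin, the copper oxidase that loads exported iron onto transferrin. Its difference from M0 was opposite to that of Slc40a1. FPKM was 0.357, 0.481 and 1.74 in M0, 40.2, 30.6 and 39.6 in M1, and 35.5, 33.8 and 33.4 in M1 + PBM. No library of either stimulated group came near the M0 range. The M1 mean of 36.8 ± 5.42 was 42.8-fold the M0 mean of 0.860 ± 0.767, and that of M1 + PBM, 34.2 ± 1.11, was 39.8-fold (SD, n = 3 each). The highest M0 value was in replicate 3, the library with raised M1 markers, and without it the log2 ratio of M1 to M0 went from 5.42 to 6.46. The log2 ratio relative to all rows was 5.87 in M1 and 5.68 in M1 + PBM. Hepatocytes also make ceruloplasmin, and M1 replicate 2 had the highest hepatocyte marker sum. Within M1 this library had the lowest Cp and the highest Trf and Hamp, other genes that liver expresses. Trf was also highest in replicate 2 of M0 and of M1 + PBM. The part of hepatocytes in these values was not tested. A gene on the other strand, Hps3, overlaps Cp in the annotation and had an FPKM of 4.09 to 5.79. Whether strand was used in counting is not given in the sources used here.

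**Figure D1:**
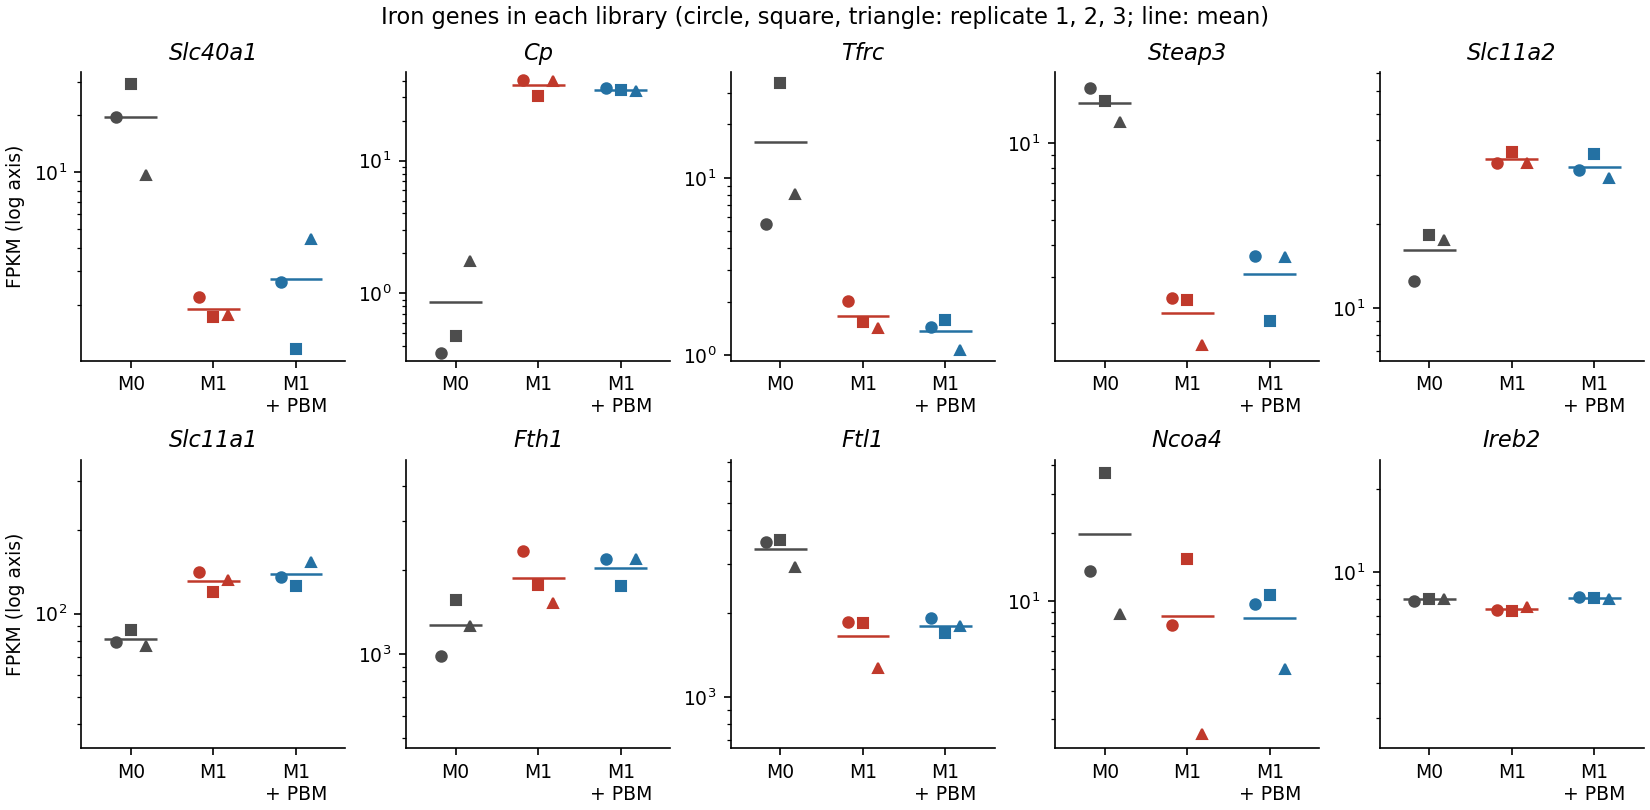
FPKM of the 10 iron genes in each of the 9 libraries, on log axes whose range differs between panels, with points for libraries (circle, square and triangle for replicates 1, 2 and 3) and lines for group means of 3. Slc40a1, Tfrc and Steap3 are lower and Cp and Slc11a2 higher in all M1 and M1 + PBM libraries than in the M0 libraries, and Ireb2 stays between 7.28 and 8.16 FPKM.

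Tfrc (ENSMUSG00000022797), the transferrin receptor that brings transferrin-bound iron into the cell, was lower after polarization as well. Its FPKM in M0 was 5.46, 34.2 and 8.05, and 1 library, replicate 2, set the mean of 15.9 ± 15.9 (SD, n = 3). In M1 it was 2.02, 1.53 and 1.42, and in M1 + PBM 1.44, 1.57 and 1.07. The stimulated libraries all lay below the lowest M0 library. The M0 mean was 9.62-fold the M1 mean and 11.7-fold that of M1 + PBM. Without M0 replicate 2 the log2 ratio of M1 to M0 went from -3.27 to -2.03, and that of M1 + PBM from -3.55 to -2.31, so the direction held and the size depended on that library. With all libraries and relative to all rows, the log2 ratios were -2.82 and -3.19. Both the exporter and the receptor were therefore lower in mRNA in M1 than in M0. The part of the iron regulatory proteins in this was not tested.

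Steap3 (ENSMUSG00000026389), the endosomal reductase that converts iron released from transferrin to its ferrous form, was lower with Tfrc. FPKM was 16.4, 14.6 and 12.0 in M0, 2.49, 2.44 and 1.63 in M1, and 3.64, 2.02 and 3.60 in M1 + PBM. Every M0 library was above every stimulated library, and the M0 libraries were close to each other. The M0 mean of 14.3 ± 2.17 was 6.56-fold the M1 mean of 2.19 ± 0.480 and 4.65-fold that of M1 + PBM, 3.09 ± 0.921 (SD, n = 3 each). Relative to all rows the log2 ratio was -2.26 in M1 and -1.85 in M1 + PBM.

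Both divalent metal transporters of the NRAMP family were higher. Slc11a2 (ENSMUSG00000023030) encodes DMT1, which carries ferrous iron across the endosomal membrane, and Slc11a1 (ENSMUSG00000026177) encodes NRAMP1, which pumps metal out of the phagosome. Slc11a2 had an FPKM of 12.5, 18.4 and 17.6 in M0, 33.2, 36.4 and 33.3 in M1, and 31.2, 35.8 and 29.4 in M1 + PBM. The means were 16.2 ± 3.19, 34.3 ± 1.81 and 32.2 ± 3.33, a ratio to M0 of 2.12 for M1, past the 2-fold rule, and of 1.99 for M1 + PBM, just under it. Without M0 replicate 1, the lowest, the M1 log2 ratio was 0.93, below the threshold of 1. The M1 + PBM ratio in turn passed 2-fold without M0 replicate 2 or 3 or M1 + PBM replicate 1 or 3, with log2 ratios of 1.01 to 1.10. Relative to all rows the log2 ratios over all libraries were 1.53 in M1 and 1.36 in M1 + PBM. Every stimulated library was above every M0 library.

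Slc11a1 was on a higher level in all groups, with an FPKM of 79.0, 87.3 and 76.6 in M0, 141.4, 119.2 and 131.9 in M1, and 135.5, 125.9 and 153.4 in M1 + PBM. The groups did not overlap with M0, but the ratios of means, 1.62 and 1.71, stayed under 2. Relative to all rows these were log2 ratios of 1.14 and 1.13. Among the 10 genes Slc11a1 was the most abundant after the ferritin subunits in every group, and its spread was small, with an SD of 5.64 on a mean of 81.0 in M0 and of 11.2 on 130.8 in M1.

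The ferritin genes were the most abundant of the set and parted from each other. Fth1 (ENSMUSG00000024661), the heavy subunit with the iron-oxidizing site, had an FPKM of 982, 1567 and 1263 in M0, 2336, 1764 and 1522 in M1, and 2191, 1755 and 2186 in M1 + PBM. M1 replicate 3 lay below M0 replicate 2, so M0 and M1 overlapped, while all M1 + PBM libraries lay above M0. The means were 1271 ± 293, 1874 ± 418 and 2044 ± 251 (SD, n = 3 each), ratios to M0 of 1.47 and 1.61. On the log2 scale these were 0.56 and 0.69 as deposited and 1.01 and 1.05 relative to all rows. Ftl1 (ENSMUSG00000050708), the light subunit that favours iron core formation, was lower than in M0, with 3611, 3664 and 2944 in M0, 1856, 1839 and 1277 in M1, and 1927, 1698 and 1795 in M1 + PBM. The lowest M0 library was well above the highest of both other groups. The M0 mean of 3406 ± 401 was 2.06-fold the M1 mean of 1657 ± 329 and 1.89-fold the M1 + PBM mean of 1807 ± 115. The M1 call of Ftl1 was lost without M0 replicate 1, M0 replicate 2 or M1 replicate 3, where the log2 ratio was -0.995, -0.98 and -0.88 in place of -1.04, and also with scaling (-0.54). Relative to all rows the log2 ratio was -0.59 in M1 and -0.55 in M1 + PBM.

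Ftl1 has copies that make its value uncertain. At 95% identity or more over at least 150 bases, 5 other rows matched its transcript, among them Ftl1-ps1 (99.6% over 910 bases), Ftl2-ps (98.7%) and Gm15590 (99.1%). Their summed FPKM was 15.7% to 18.2% of that of Ftl1 in every library. Adding them left the log2 ratio of M1 to M0 at -1.03, against -1.04 for Ftl1 alone. The short miRNA row Gm22133, which lies inside Ftl1 on the same strand, was listed at 2007 to 5663, and fragments of the host transcript cannot be told apart from it. No copy past these limits was found for Fth1.

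The ratio of Fth1 to Ftl1 within a library does not depend on how libraries are scaled. It was 0.272, 0.428 and 0.429 in M0, 1.26, 0.959 and 1.19 in M1, and 1.14, 1.03 and 1.22 in M1 + PBM. In M0 the light subunit mRNA was the more abundant in all 3 libraries, and after stimulation the subunits were near parity, with the heavy one ahead in 5 of the 6 libraries and only M1 replicate 2 below 1. The M1 and M1 + PBM ranges overlapped. These ratios use the Ftl1 row alone. With its copies added, Ftl1 was at 2193, 2143 and 1497 in M1 and 2238, 1989 and 2077 in M1 + PBM. Fth1 was then below it in M1 replicate 2 and in M1 + PBM replicates 1 and 2. The summed FPKM of both subunits, without copies, was 4207 to 5231 in M0, 2799 to 4192 in M1 and 3453 to 4118 in M1 + PBM. As a share of FPKM without the 3 most abundant rows this was 1.52% to 1.98%, 1.06% to 1.57% and 1.31% to 1.57%, so that M0 overlapped with both stimulated groups on this scale.

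The ratio of storage to uptake mRNA differed by more. Fth1 exceeded Tfrc 180-fold, 45.8-fold and 157-fold in the M0 libraries, 1159-fold, 1154-fold and 1073-fold in M1, and 1519-fold, 1116-fold and 2051-fold in M1 + PBM. No stimulated library came within the M0 range. The exporter and the receptor showed no such separation. The ratio of Slc40a1 to Tfrc was 3.56, 0.853 and 1.19 in M0, 1.09, 1.13 and 1.25 in M1, and 1.83, 0.742 and 4.16 in M1 + PBM. The M1 values were close together and lay inside the ranges of both other groups.

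**Figure D2:**
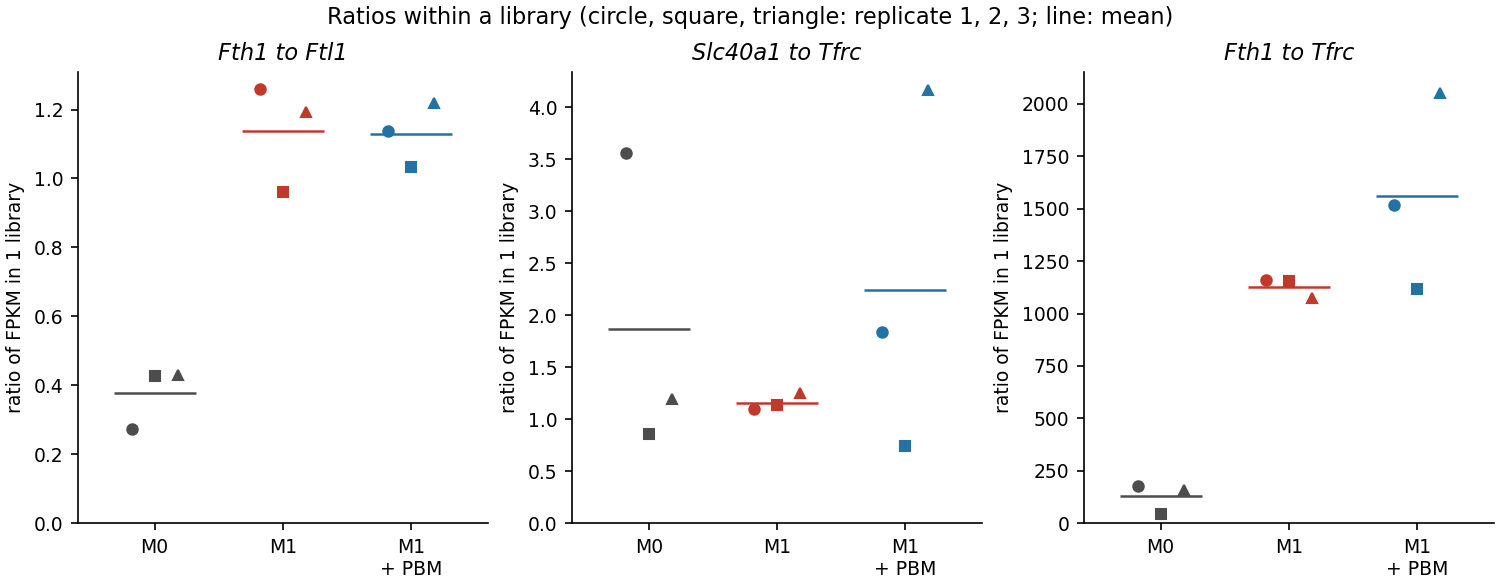
Ratios of FPKM between iron genes in each library, on linear axes from 0, with points for libraries and lines for group means of 3. The ratio of Fth1 to Ftl1 is 0.272 to 0.429 in M0 and 0.959 to 1.26 in the 6 stimulated libraries, while the ratio of Slc40a1 to Tfrc overlaps between all groups.

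Ncoa4 (ENSMUSG00000056234), the receptor that delivers ferritin to the lysosome for iron release, varied more between replicates than between groups. FPKM was 13.7, 36.9 and 8.78 in M0, 7.89, 15.4 and 2.57 in M1, and 9.70, 10.6 and 5.03 in M1 + PBM. Replicate 2 was the highest and replicate 3 the lowest in each of the 3 groups, and the groups overlapped. The M0 mean was 2.30-fold the M1 mean, and without M0 replicate 2 the log2 ratio of M1 to M0 went from -1.20 to -0.38. Over all libraries it was -0.75 relative to all rows, and -0.87 in M1 + PBM. Without M0 replicate 3 the M1 + PBM libraries no longer overlapped with M0, and without M1 replicate 2 the M1 libraries did not.

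The Ncoa4 row shares its sequence with Gm6768, annotated as a processed pseudogene, which was 99.9% identical over 1878 bases. The reads of the pair cannot be told apart with confidence, and Gm6768 carried more FPKM than Ncoa4 in all 9 libraries: 29.5, 40.0 and 22.1 in M0, 18.3, 35.1 and 5.83 in M1, and 27.6, 25.0 and 11.5 in M1 + PBM. Replicate 3 was again the lowest in every group. The sum of the pair was 43.2, 77.0 and 30.9 in M0, 26.2, 50.5 and 8.41 in M1, and 37.3, 35.6 and 16.5 in M1 + PBM, with a log2 ratio of M1 to M0 of -0.83 and overlapping groups. Trf, which encodes transferrin, also had replicate 2 highest and replicate 3 lowest in every group, with 109.5, 257.7 and 62.1 in M0, 28.6, 90.8 and 27.1 in M1, and 54.6, 71.6 and 39.4 in M1 + PBM. In M1 its high library, replicate 2, is the one with the highest hepatocyte marker sum (21.1), whose part in these values was not tested.

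**Figure D3:**
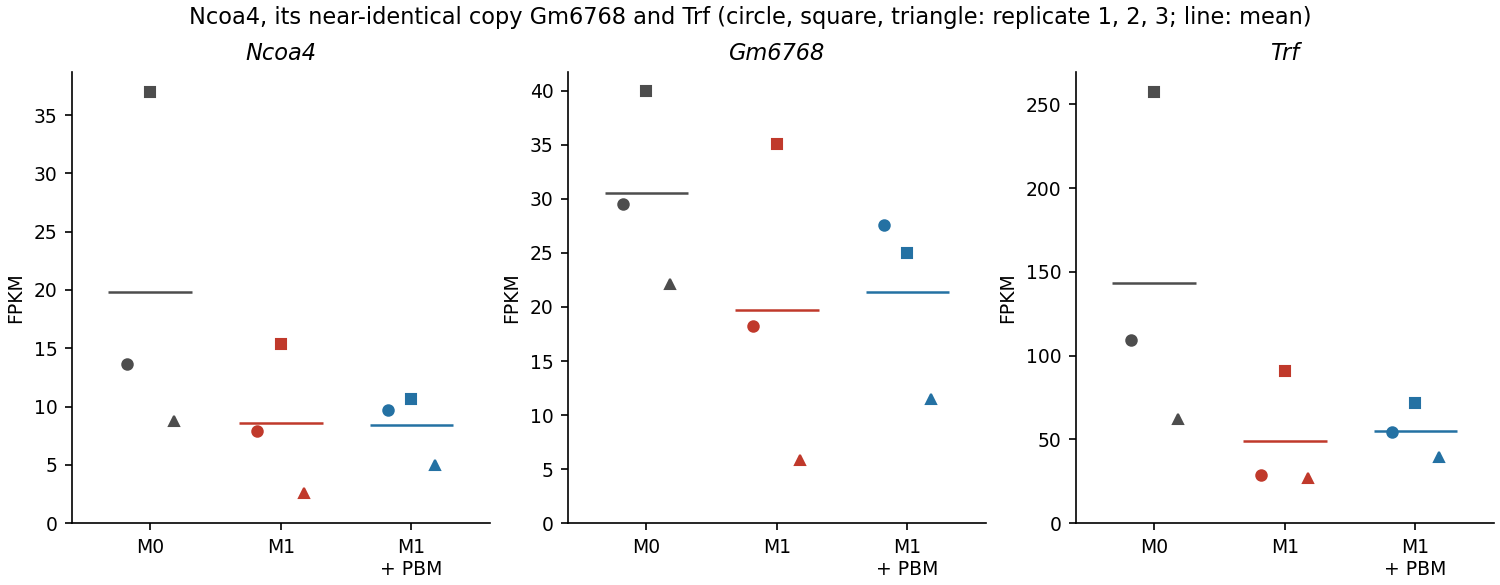
FPKM of Ncoa4, its near-identical copy Gm6768 and Trf in each library, on linear axes from 0, with points for libraries (circle, square and triangle for replicates 1, 2 and 3) and lines for group means. Replicate 3 is the lowest library of its group in every panel, and replicate 2 is the highest except for Gm6768 in M1 + PBM (25.0 against 27.6 in replicate 1).

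Ireb2 (ENSMUSG00000032293), which encodes iron regulatory protein 2, had the smallest spread. Its FPKM was 7.89, 8.04 and 8.05 in M0, 7.36, 7.28 and 7.49 in M1, and 8.16, 8.08 and 8.00 in M1 + PBM. The coefficient of variation within a group was 1.00% to 1.41%, the lowest of the 10 genes in each group. M1 lay below M0 without overlap as deposited, with a log2 ratio of -0.12, but median-of-ratios scaling turned it to 0.39. M1 + PBM overlapped with M0 as deposited, with a log2 ratio of 0.02, and lay above M0 without overlap after scaling, at 0.43. Relative to all rows the log2 ratios were 0.33 and 0.38. IRP2 is known to be controlled mainly through protein breakdown, which these data do not measure.

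**Figure D4:**
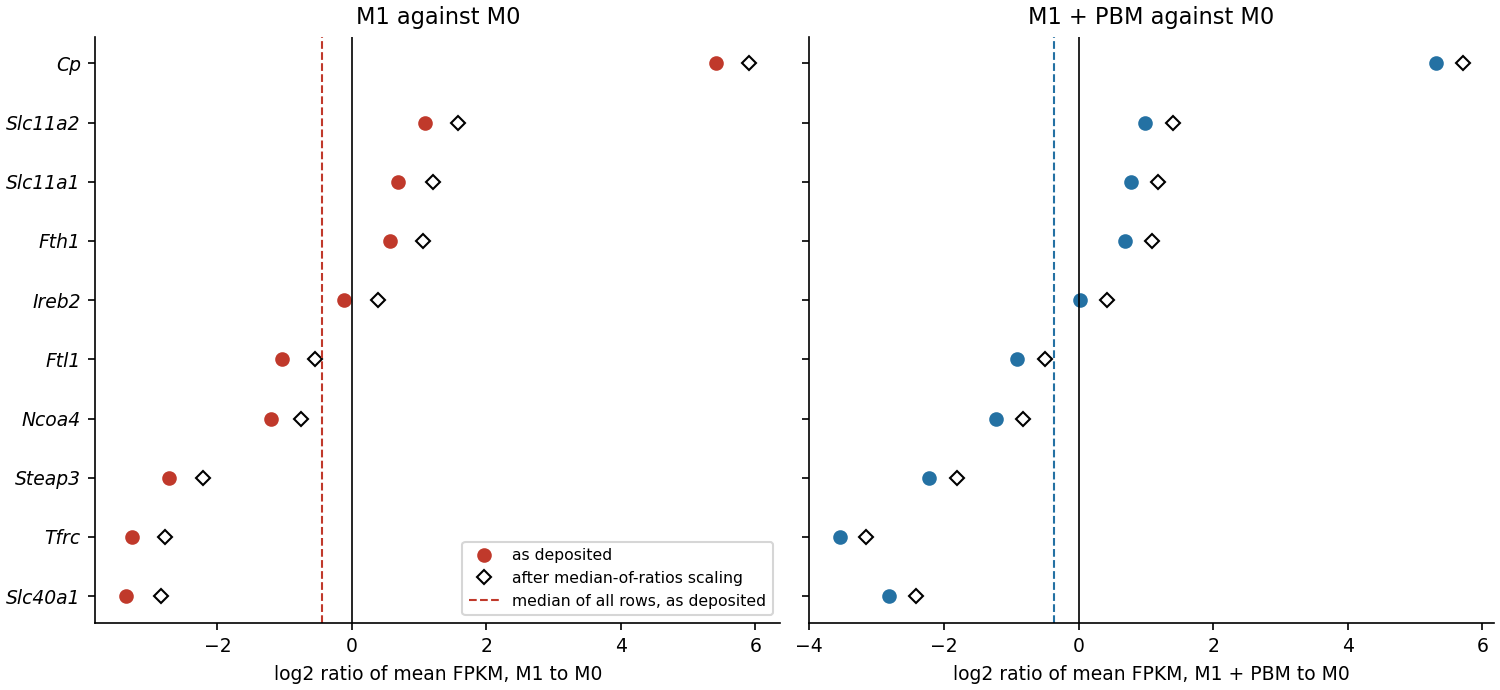
Log2 ratio of mean FPKM to M0 for the 10 genes, for M1 (left) and M1 + PBM (right), as deposited (filled circles) and after median-of-ratios scaling (open diamonds), with a dashed line at the median of all 13915 rows as deposited and a solid line at 0. Slc40a1, Tfrc, Steap3, Ftl1 and Ncoa4 are below 0 and Cp, Slc11a2, Slc11a1 and Fth1 above 0 on both scales, and Ireb2 changes sign in M1.

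The order of the mean levels differed between M0 and the stimulated groups. In M0 it ran Ftl1, Fth1, Slc11a1, then Ncoa4, Slc40a1, Slc11a2, Tfrc and Steap3, each of which overlapped with the next, then Ireb2 and last Cp. In M1 the order was Fth1 and Ftl1, whose libraries overlapped, then Slc11a1, then Cp and Slc11a2, which also overlapped, then Ncoa4 and Ireb2, and last Steap3, Slc40a1 and Tfrc, each overlapping with the next. M1 + PBM had the same order as M1, with the same neighbours overlapping. FPKM are values per length, so these levels can be set side by side, although the read sharing of Ftl1 and Ncoa4 bears on their places.

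The comparison the study made, M1 + PBM against M1, asks whether irradiation changed these genes in polarized macrophages. None of the 10 genes was called. limma's moderated test on log2(FPKM + 1) over 12238 rows found 0 of 10 at an unadjusted p of at most 0.05, where 4.44% of all rows passed (2.99% higher and 1.45% lower), 0 past the study's thresholds of that p and a log2 fold change of at least 1, where 0.261% passed, and 0 at a Benjamini-Hochberg adjusted p under 0.05, where 0.00817% passed. The study counts many more genes at its thresholds than the 32 rows that passed here, by a test it does not name. The result of 0 of 10 therefore holds for the fits made here only. The lowest adjusted p of a member was 0.90 (limma). Of the 10 genes, 7 had a positive and 3 a negative log2 fold change, and their median was 0.13, where the median of all rows was 0.06 and 65.6% of rows lay above 0.

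The intervals show what the comparison can bound. The log2 fold change of Tfrc was -0.17 (95% interval -0.49 to 0.16), of Slc11a2 -0.09 (-0.36 to 0.17) and of Cp -0.09 (-0.40 to 0.22). For Slc11a1 it was 0.08 (-0.22 to 0.37), for Fth1 0.14 (-0.32 to 0.60) and for Ftl1 0.14 (-0.28 to 0.57). For these 6 genes and for Ireb2 and Steap3 the interval excluded a difference of 1 in either direction on the log2(FPKM + 1) scale. This scale understates changes of low genes such as Tfrc, Steap3 and Slc40a1. Their limits are therefore not limits on a 2-fold change in FPKM. The other genes had wider intervals, Slc40a1 with 0.27 (-0.49 to 1.04) and Ncoa4 with 0.17 (-1.17 to 1.52), which reach beyond a 2-fold change. When replicate number entered the model as a block, these intervals were -0.40 to 0.95 and -0.47 to 0.82, within 1 on this scale. For a low gene such as Slc40a1 this does not exclude a 2-fold change in FPKM. An absence of change is not shown by these values.

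Steap3 had the largest log2 fold change of the set, 0.34 with a standard error of 0.21 (95% interval -0.15 to 0.84). Its M1 and M1 + PBM libraries overlapped, since M1 + PBM replicate 2 was at 2.02 and the M1 libraries reached 2.49. Without M1 + PBM replicate 2, Steap3 and Slc40a1 reached an unadjusted p of 0.0153 and 0.0224 (limma), with log2 fold changes of 0.55 and 0.62, while 930 of the 12238 rows then passed in place of 543, and the lowest adjusted p of a member was 0.604. Without M1 + PBM replicate 3 the log2 fold change of Slc40a1 was -0.04.

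Ireb2 was the only member whose M1 + PBM libraries, 8.00 to 8.16, all lay above its M1 libraries, 7.28 to 7.49. The log2 fold change was 0.12 with a 95% interval of -0.07 to 0.31, and the two-sided exact permutation p was 0.1, the smallest that 3 against 3 can give. Of all rows 8.51% were higher and 2.52% lower with PBM without overlap. After median-of-ratios scaling the log2 fold change was 0.05. That scaling moved the median of all rows from 0.06 to -0.0054 and the calls at an unadjusted p of at most 0.05 from 366 higher and 177 lower to 234 higher and 283 lower.

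**Figure D5:**
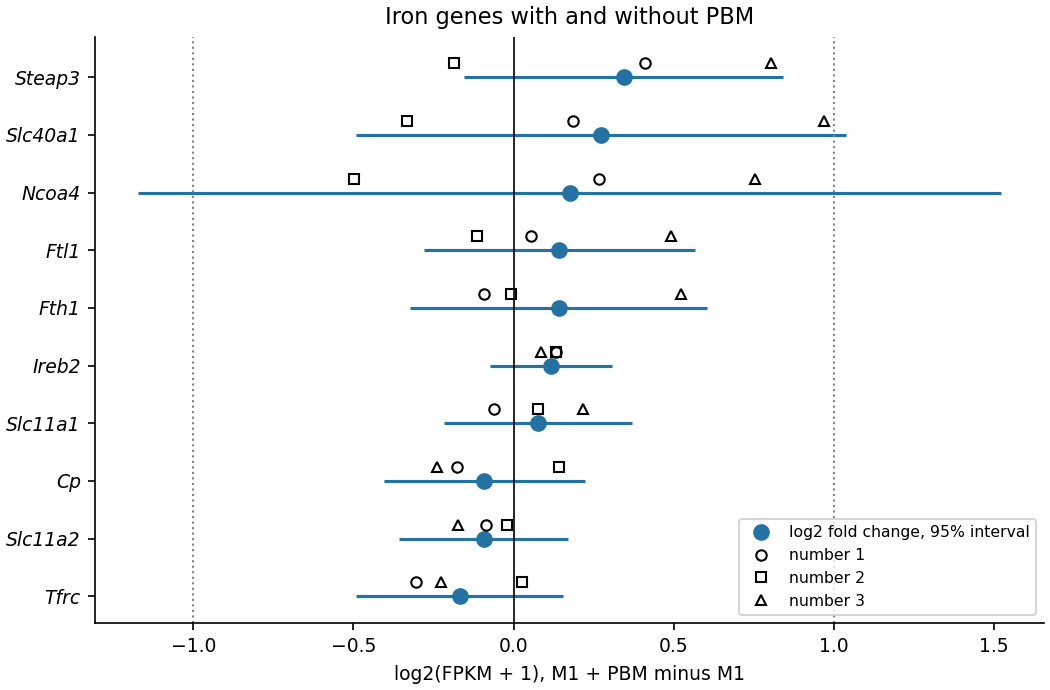
Difference in log2(FPKM + 1) between M1 + PBM and M1 for the 10 genes, as limma's log2 fold changes with 95% intervals (filled circles, n = 3 libraries each) and as differences between libraries of the same replicate number (open symbols), with dotted lines at the study's threshold of 1. Every interval includes 0, and triangles (number 3) lie highest for 6 of the genes.

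Libraries of the same replicate number deviated together, so the differences by number are given as well. In number 3, 7 of the 10 genes were higher with PBM, with a median difference of 0.35 on the log2 scale, where the 13915 rows of the M0 comparisons had a median of 0.14. Of those rows 69.7% were higher in number 3, so the share of members was close to the background. In numbers 1 and 2 the medians of the 10 genes were near 0, with 5 and 4 genes higher, where 57.1% and 53.3% of rows were higher. Slc40a1 differed by 0.19, -0.33 and 0.97 in numbers 1 to 3, Ncoa4 by 0.27, -0.50 and 0.75 and Steap3 by 0.41, -0.19 and 0.81. These genes and Ftl1 were lowest in number 2 and highest in number 3. Only Ireb2 was higher in all 3 numbers (0.13, 0.13 and 0.08) and only Slc11a2 lower in all 3 (-0.08, -0.02 and -0.17). When the replicate block entered the model, 988 of all rows reached an unadjusted p of at most 0.05, and again none of the 10 genes did, with a lowest adjusted p of 0.591 (limma).

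The rest of the iron pathway was taken from a list of 51 further genes, 50 of which had a row. Against M0, 34 of them passed the filter on low values. In M1, 5 were called higher and 7 lower, beside 9.42% and 23.0% of all rows. In M1 + PBM 6 were called higher and 6 lower, beside 8.88% and 18.2% of all rows. Among those higher, Lcn2, the siderophore-binding lipocalin, had an FPKM of 0.0249, 0.0428 and 1.05 in M0 and 73.2 to 167.1 in M1. Hmox1, the haem oxygenase that frees iron from haem, was at 233.2 to 248.6 in M0, 745.9 to 1023 in M1 and 585.5 to 1385 in M1 + PBM, a 3.66-fold and 4.13-fold difference of means. Slc25a37, the mitochondrial iron importer mitoferrin 1, was at 3.87 to 7.01 in M0 and 24.4 to 34.4 in M1. Hp, the haemoglobin-binding haptoglobin, was at 0.811 and 0.670 in M0 replicates 1 and 2 and 21.5 in replicate 3, the library that stood apart, and at 52.2 to 106.2 in M1. Hamp encodes hepcidin, the peptide that degrades ferroportin. It was listed at 0, 0 and 0.0514 in M0 and was at 2.33, 2.58 and 1.10 in M1. The highest value was in replicate 2, the library with the highest hepatocyte marker sum, whose part was not tested.

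Those lower included Epas1, which encodes the hypoxia factor HIF-2α, with a mean 17.4-fold higher in M0 than in M1, Slc39a8, a zinc and iron importer (3.91-fold), Lrp1, which takes up haem bound to hemopexin (3.77-fold), and Hfe, a partner of the transferrin receptors (2.99-fold). Aco1, which encodes iron regulatory protein 1, was at 15.6 to 20.4 in M0 and 7.23 to 12.1 in M1, without overlap but under 2-fold (1.84). Fbxl5, which marks IRP2 for breakdown, was at 3.81 to 3.95 in M0 and 5.12 to 6.35 in M1, a ratio of 1.53. Trf and Slc39a14, another iron importer, overlapped between M0 and M1. The median log2 ratio of the 34 genes was -0.38 in M1, near the -0.45 of all rows.

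Of the same list 31 genes were tested for PBM, with 19 above and 12 below 0 and a median of 0.07 on the log2 scale, and 4 reached an unadjusted p of at most 0.05 (limma), where 4.44% of all rows did. None passed the study's thresholds or the adjusted p. Hamp had a mean of 2.01 ± 0.792 in M1 and of 0.569 ± 0.125 in M1 + PBM (SD, n = 3 each), with libraries at 0.600, 0.431 and 0.676 that all lay below those of M1. Hamp passed the filter on low values only through its M1 libraries, at 1.10 to 2.58. Its entry into the test therefore favoured a lower value with PBM. The interval and p-values of Hamp, and its place among the 4 genes, are thus no support for a decrease. Its log2 fold change was -0.90 (95% interval -1.42 to -0.39, limma adjusted p = 0.90). It was -1.59 with a pseudocount of 0.1 and -1.14 without M1 replicate 3, both past the study's thresholds. Hp had a mean of 74.4 ± 28.2 and 43.9 ± 6.71, a log2 fold change of -0.69, and was likewise lower without overlap. Blvra, a biliverdin reductase, had a log2 fold change of 0.40, and Hmox2, the constitutive haem oxygenase, of 0.40, both higher without overlap. Leaving out single libraries raised the unadjusted p above 0.05 for Hp (M1 replicate 1 or 2, M1 + PBM replicate 2 or 3) and Hmox2 (M1 replicate 1 or 2, M1 + PBM replicate 1), and scaling did so for Hmox2, while Blvra and Hamp stayed below it. Hfe (0.43) and Lrp1 (0.42) had larger log2 fold changes than Blvra and Hmox2 and overlapped between the groups. Hmox1 (0.10), Aco1 (0.16), Trf (0.37), Lcn2 (-0.25), Fbxl5 (-0.20) and Slc39a14 (-0.18) overlapped too. Several of these values rested on 1 library: without M1 replicate 2, Trf was at 0.92, Lcn2 at -0.63, Aco1 at 0.34, Slc39a14 at -0.32 and Fbxl5 at -0.29, and Trf, Lcn2 and Fbxl5 then reached an unadjusted p of 0.0129, 0.00196 and 0.0301 (limma). Without M1 replicate 3 they were 0.07 for Trf, -0.04 for Lcn2 and 0.0036 for Aco1. Hfe and Lrp1 were at 0.62 and 0.63 without M1 + PBM replicate 2, with an unadjusted p of 0.0415 and 0.00924 (limma). With the replicate block, under which 988 of the 12238 rows passed, 6 of the 31 reached an unadjusted p of at most 0.05, Slc25a37 among them with a log2 fold change of -0.31.

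The rows whose pattern over the 9 libraries was most like that of a member were found by the Pearson correlation of log2(FPKM + 1). The 9 points share libraries and fall into a M0 and a stimulated set, which alone gives high values, so these are descriptions. Nearest to Slc40a1 were Gm12353, Foxo3 and Zfand2a (r between 0.992 and 0.996). Nearest to Tfrc, with its single high M0 library, were Cnrip1, Arhgap24 and Pdzk1ip1 (r between 0.968 and 0.985). Fth1 had less close neighbours, Ficd (r = 0.955), Cog4 (0.901) and Sash1 (0.899).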

How the data were processed

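The authors deposited FPKM values in 2 tables of 55655 rows, 1 with the 3 M0 libraries and 1 with the 3 M1 and 3 M1 + PBM libraries. Libraries were strand-specific TruSeq libraries. The study's methods name Cufflinks methods for expression values. The submitters' processing notes list Bowtie 0.12.2 and mm9 without a role, and 320 rows have names of the form StringTie gives. Since the files hold Ensembl identifiers and no positions, GENCODE M21 (GRCm38) served for symbols (55154 rows matched) and sequences, and the positions printed are its own.

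The 10 genes and all other lists were chosen with earlier results of these data known. limma 3.58.1 in R 4.3.3 (lmFit, eBayes with a trend) tested M1 + PBM against M1 on log2(FPKM + 1). Rows entered where 3 or more of the 6 libraries reached an FPKM of 1, and p-values were adjusted over all 12238 (Benjamini-Hochberg). The study gives its thresholds (p up to 0.05, 2-fold in either direction) but not the test. Fold changes on this scale understate those of low genes. The test was checked on simulated data first. Single genes were also tested by a two-sided exact permutation test. M0 entered no test. M0 comparisons used ratios of mean FPKM over the 13915 rows that reached an FPKM of 1 in 3 or more of the 9 libraries. Copies were found with BLAST+ 2.17.0.

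All 10 genes are named. From the list of 51 further iron genes, those named are the 6 with the largest difference in each comparison, and Hmox1, Aco1, Fbxl5, Trf, Slc39a14 and Lcn2. Gm6768 and the other copies and overlapping genes were chosen after seeing values. The 3 rows most like Slc40a1, Tfrc and Fth1 are named as well.

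The replicate numbers were taken to pair the M1 and M1 + PBM libraries only in the differences by number and in the replicate block. The main limma test and the permutation test did not use them. Deviations from the group means correlated across rows with r of 0.157, 0.469 and 0.462 between libraries of the same number, and between -0.491 and 0.0328 between different numbers. The labels do not say what a number marks. Alternatives were other pseudocounts, filters and scaling, the replicate block, each library left out, and, chosen after seeing the data, rows summed with their copies.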

Additional observations from a re-analysis of the deposited data

How the results depend on the processing

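For M1 + PBM against M1, 0 of the 10 genes passed the study's thresholds or the adjusted p under any setting: median-of-ratios scaling, the replicate block, a pseudocount of 0.1, every row kept, only rows averaging 5 FPKM or more (which kept 7 of the 10 genes), or 1 library left out. The count at an unadjusted p of at most 0.05 was 0 under the same settings except that it ranged from 0 to 2 when a library was left out, the 2 being Slc40a1 and Steap3 without M1 + PBM replicate 2. The replicate block changed none of the members' calls and moved the count over all rows from 543 to 988 and that of the further iron genes from 4 to 6. The log2 fold change of Slc11a1 was 0.08 and turned to -0.0025 with scaling. Leaving out a library turned the sign for Slc40a1, Ftl1, Ncoa4 and Hmox1, over ranges given here in order: -0.044 to 0.62, -0.034 to 0.24, -0.41 to 0.69 and -0.18 to 0.44. For the further iron genes the count at an unadjusted p of at most 0.05 ranged from 2 to 7 when a library was left out. The count past the study's thresholds, 0, became 1 with a pseudocount of 0.1 and ranged from 0 to 1 without a library. The gene was Hamp in both cases (M1 replicate 3 left out). Hamp entered the test only through its M1 libraries, which favoured a lower value with PBM, so these calls are no support for a decrease.

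For M1 against M0, 6 genes were called and 4 to 7 when a library was left out. For M1 + PBM against M0, 4 were called, 7 with median-of-ratios scaling, and 4 to 7 when a library was left out, with 7 without M0 replicate 3, where Ftl1, Ncoa4 and Slc11a2 were added. The cause of these changes was not tested. Neither the pseudocount of 1 nor dropping the minimum FPKM changed the number called. Median-of-ratios scaling turned Ireb2 from -0.12 to 0.39 in M1 against M0. With 3 libraries a group and no read counts, counting error could not be separated from the spread between libraries. The depth behind low FPKM, such as those of Tfrc and Slc40a1 after polarization and of Cp in M0, is unknown.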
